A study of Mus musculus with 4 samples.

Results

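The genes described here encode the proteins of the mitochondrial ribosome and were taken as all symbols of the count table that begin with Mrpl or Mrps followed by a digit. This rule used no measured value and found 76 of 23418 symbols, and all 76 passed the filter on low counts that left 13075 genes for testing. The study sequenced RNA of sorted B cells, taken from cervical lymph nodes, in 2 libraries of mice labelled BL/10, the control strain, and 2 of mice labelled NOD.B10. NOD.B10, a NOD strain with the H2 haplotype of C57BL/10, is studied as a model of Sjögren's disease, an autoimmune disease of the salivary and lacrimal glands. The labels give no treatment, age, sex or number of animals for either strain, and the series as a whole concerns IL-36 cytokines in that disease. Nothing in the labels ties the libraries to separate animals, and p-values therefore measure only the spread between these libraries, which may be technical.

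The mitochondrial ribosome translates the few messengers of the mitochondrial genome, all of which encode subunits of the respiratory chain and the ATP synthase. Its ribosomal RNAs are made inside the organelle, whereas every one of its proteins is encoded in the nucleus, made in the cytosol and imported. Some of these proteins descend from bacterial ribosomal proteins and others were gained by the mitochondrion. Resting lymphocytes hold few mitochondria, and their mitochondrial translation is known to rise on activation. By the structure of the ribosome, 49 of the genes encode proteins of the large subunit, among them Mrps30 and Mrps18a despite their names, and 26 encode proteins of the small subunit. The remaining gene, Mrps36, carries the family's name but its product is known as a component of the oxoglutarate dehydrogenase complex.

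Total counts per library lay between 19328803 and 29372751 reads, and single members had from 48 to 1422 reads in a library. B cell markers were abundant in every library, with a summed level of 9373 to 10954 CPM (reads per 1000000, over library sizes scaled by TMM, a normalisation that assumes most genes are level), and 1 of 10, Fcer2a, was called higher in NOD.B10. This count was 2 to 4 in 11 of 15 alternative fits, with 4 markers called when the second BL/10 library was left out, and Cr2 had the larger log2 fold change, 0.71, at an adjusted p of 0.0538. Markers of other cells differed between the strains. All 16 T cell markers tested were called lower in NOD.B10, with a median log2 fold change of −5.71. Cd2 and Lck made up most of their summed level in NOD.B10, 210 to 222 CPM against 698 to 790 CPM in BL/10, and the other 14 markers summed to 11.6 to 18.2 CPM against 432 to 505 CPM. Themis had 0 reads in 1 NOD.B10 library. All 5 natural killer cell markers tested were also called lower, of which Klrk1 and Klrd1 had 0 reads in both NOD.B10 libraries, and the median log2 fold change was −5.31. Without Prf1, which made up most of the NOD.B10 sum, they summed to 0.155 to 0.157 CPM in NOD.B10 and 6.99 to 14.4 CPM in BL/10. Without the second BL/10 library 3 natural killer cell markers were called. Of the other lists, 4 of 8 myeloid, 2 of 7 plasma cell, 3 of 4 erythroid and 8 of 16 cell cycle genes were called lower. Over all genes tested 8.63% were called lower. Above 0 lay 1 myeloid gene (Adgre1, log2 fold change 0.64, not called), 3 plasma cell, 0 erythroid and 2 cell cycle genes. Without the second BL/10 library 1 myeloid gene was called. Without the first BL/10 library 0 plasma cell genes were called lower (Prdm1 at an adjusted p of 0.329, Tnfrsf17 at 0.176), while DESeq2 on all libraries called 4. The plasma cell sum was 1312 and 678 CPM in the BL/10 libraries and 695 and 618 CPM in the NOD.B10 libraries. The part of these differences in the levels given next was not tested. In bulk RNA, fewer cells of a type and less RNA per cell cannot be told apart.

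As a family, the genes did not separate the strains. Their summed level was 1306 and 1557 CPM in the BL/10 libraries and 1321 and 1402 CPM in the NOD.B10 libraries, or 0.132% and 0.154% against 0.132% and 0.141% of all counted reads. Both NOD.B10 values lay between the BL/10 values. For the large subunit the sums were 925 and 1086 CPM in BL/10 and 913 and 957 CPM in NOD.B10. For the small subunit they were 377.5 and 466 CPM in BL/10 and 405 and 441 CPM in NOD.B10. Means were 1432 ± 178 (SD, n = 2) and 1361 ± 56.7 CPM (SD, n = 2) for the whole family. A two-sided exact permutation test of the summed level gave p = 1 for the family, 0.667 for the large subunit and 1 for the small subunit. With 2 libraries a strain this test cannot go below 0.333, so it could not have called a difference and decides nothing here.

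**Figure D1:**
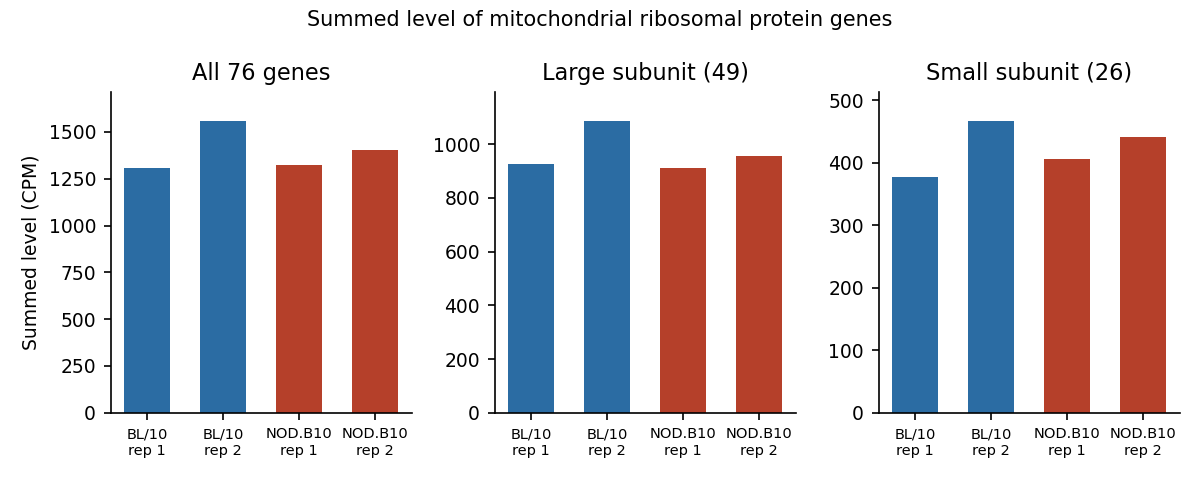
Bars give the summed level in CPM of all 76 genes, of the 49 large subunit genes and of the 26 small subunit genes in each library, BL/10 in blue and NOD.B10 in red. In the first panel the second BL/10 library is highest at 1557 CPM and the other libraries lie between 1306 and 1402 CPM.

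Gene by gene, 3 of the 76 differed between the strains in a test over all genes (edgeR quasi-likelihood test, Benjamini-Hochberg adjusted p under 0.05), 1 higher and 2 lower in NOD.B10. Over all genes tested the share called was 15.2%, with 6.55% higher and 8.63% lower, while 3.95% of the family were called. At an unadjusted p under 0.05, 7 members passed, against 26.8% of all genes. The median log2 fold change, NOD.B10 over BL/10, was −0.04 for the family and −0.0032 for all genes tested. Of the members 46 lay below 0 and 30 above, from −0.70 to 0.67, and the middle of the distribution ran from −0.29 to 0.08 between quartiles. A change smaller than 0.5 on the log2 scale was found for 93.4% of members and for 71.7% of all genes, and a change above 1 for 0 members and 14.6% of all genes. The standard error (SE) of a member's log2 fold change had a median of 0.20, from 0.13 to 0.65, and a median of 0.18 over all genes.

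**Figure D2:**
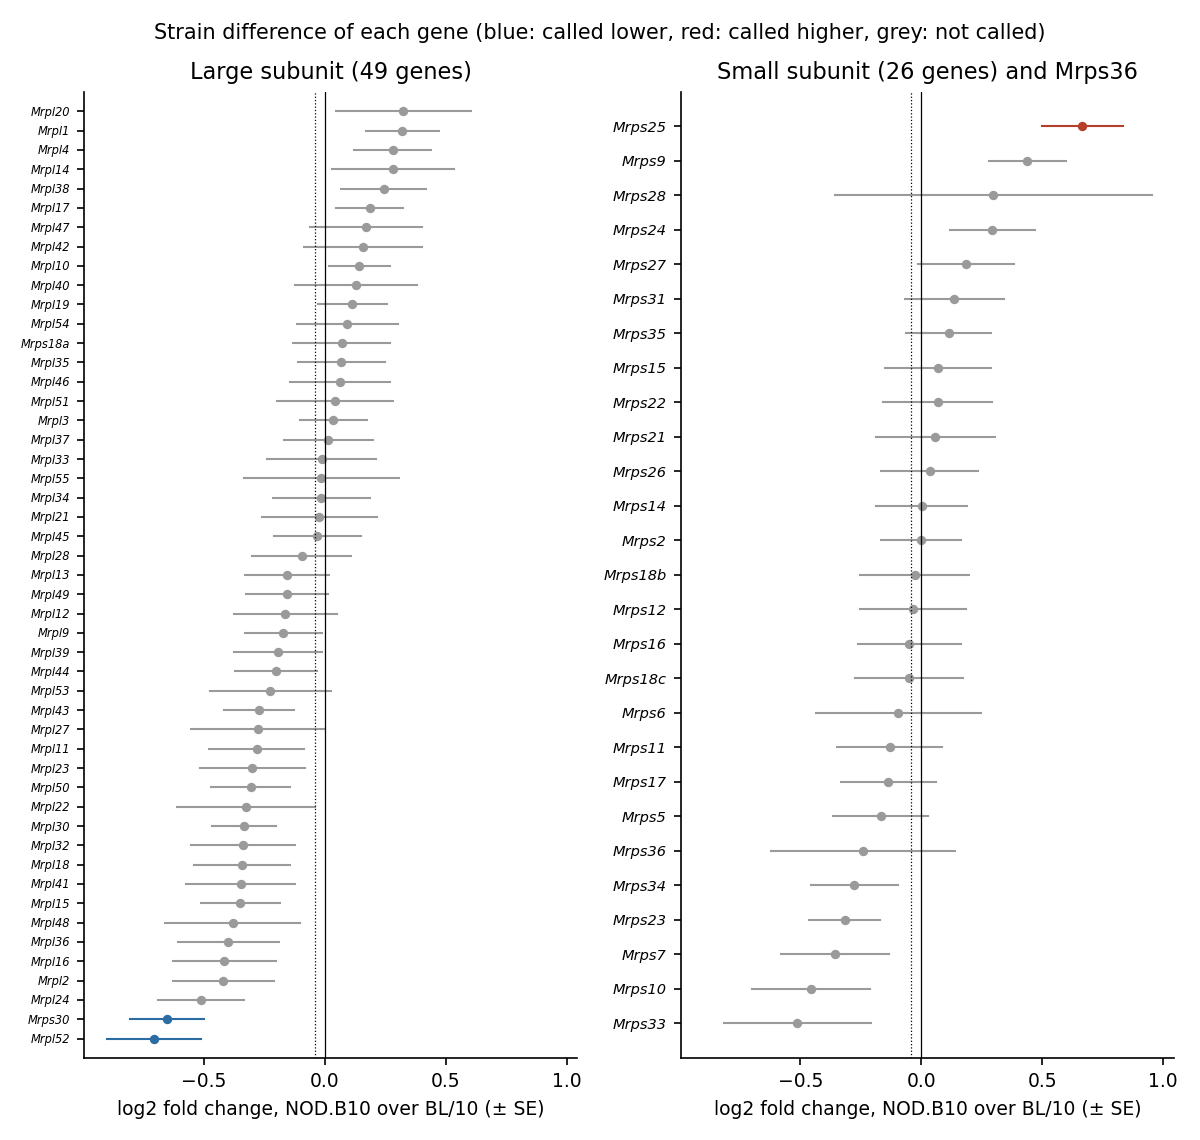
Points give each gene's log2 fold change, NOD.B10 over BL/10, with bars of ± 1 SE, for the large subunit and for the small subunit with Mrps36. Solid and dotted vertical lines mark 0 and the family's median of −0.04, and the coloured points are the 3 called genes, Mrpl52 and Mrps30 (lower) and Mrps25 (higher).

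Mrps30 (chromosome 13, 118380110 to 118387252, minus strand), which encodes a mitochondrion-specific protein of the large subunit, was the lower gene with the smallest adjusted p. It stood at 32.3 and 34.3 CPM in the BL/10 libraries and at 22.2 and 20.2 CPM in the NOD.B10 libraries. Both NOD.B10 libraries were below both BL/10 libraries, by more than either strain's replicates differed. The log2 fold change was −0.65 (SE 0.154, adjusted p = 0.0113), that is 1.57-fold lower in NOD.B10. Without the second NOD.B10 library the adjusted p was 0.0568. Its exons share 623 bases with those of B430218F22Rik on the opposite strand, and the strand setting of the counting is not known here, so its count is uncertain in part.

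Mrpl52 (chromosome 14, 54426909 to 54429750, plus strand) encodes another mitochondrion-specific protein of the large subunit. It had 542 and 600 reads in BL/10 and 265 and 301 reads in NOD.B10, which are 18.3 and 23.3 CPM against 13.7 and 11.8 CPM. The strains did not overlap, and the change was 1.63-fold (log2 fold change −0.70, SE 0.195, adjusted p = 0.0265). Leaving out the second BL/10 library gave an adjusted p of 0.151, and leaving out the second NOD.B10 library gave 0.0939, so the call rested on both. Of the 5 tested genes within 100 kb of Mrpl52, 0 were called by edgeR, and the lowest adjusted p among them was 0.101, for Mmp14, at means of 0.940 and 0.155 CPM.

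Mrps25 (chromosome 6, 92169512 to 92184023, minus strand) encodes a mitochondrion-specific protein of the small subunit and was the only member called higher. Its levels were 18.5 and 21.6 CPM in BL/10 and 34.8 and 28.9 CPM in NOD.B10, with both NOD.B10 libraries above both BL/10 libraries. The change was 1.59-fold (log2 fold change 0.67, SE 0.168, adjusted p = 0.016). Its call needed the first library of either strain, since leaving out that of BL/10 gave an adjusted p of 0.0541 and leaving out that of NOD.B10 gave 0.123. In the GENCODE M21 annotation, exons of Mrps25 share 4590 bases with exons of Nr2c2 on the opposite strand, and the strand setting of the counting is not given in the sources used here. The count of Mrps25 is therefore uncertain. Nr2c2 itself stood at 149 ± 15.1 (SD, n = 2) against 147 ± 3.93 CPM (SD, n = 2), BL/10 first (log2 fold change −0.01, adjusted p = 0.968).

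**Figure D3:**
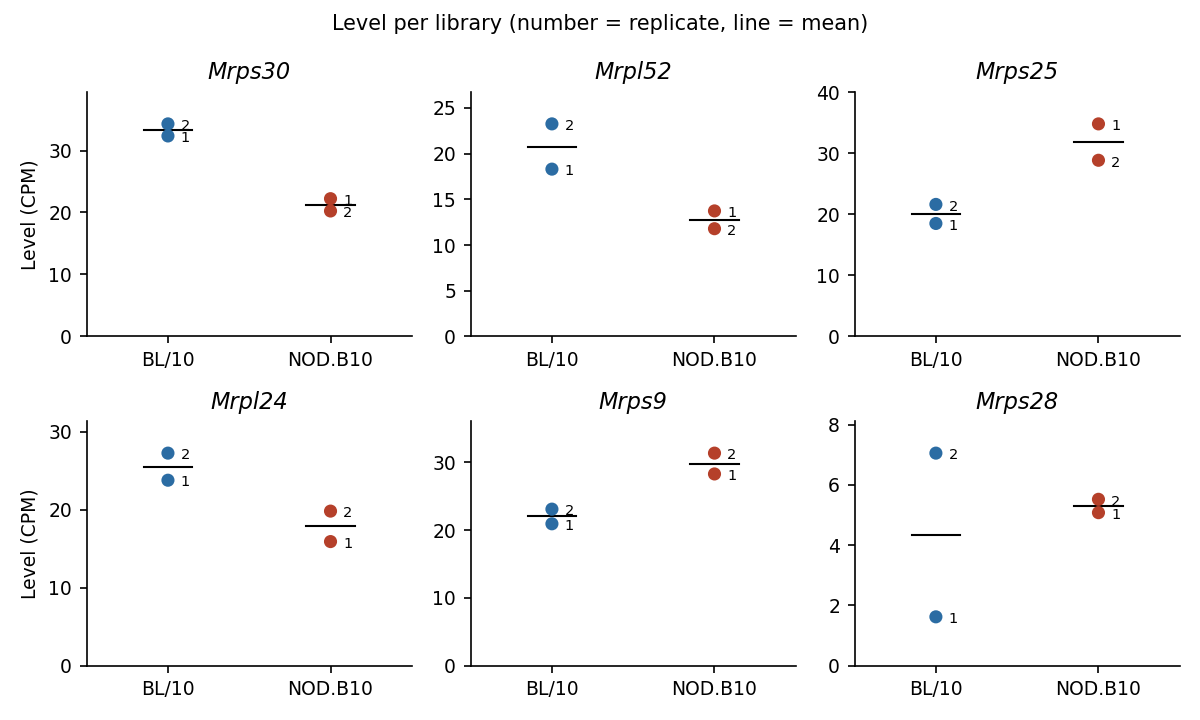
Levels in CPM in each library for 6 members, BL/10 in blue and NOD.B10 in red, with the replicate number beside each point and a line at the mean. The strains separate for Mrps30, Mrpl52, Mrps25, Mrpl24 and Mrps9, of which the first 3 were called, while the BL/10 libraries of Mrps28 lie at 1.62 and 7.05 CPM.

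All 3 called genes belong to the mitochondrion-specific class, which holds 28 of the genes, a share of 10.7% against 15.2% of all genes tested. Of the 47 with a bacterial homologue 0 were called by edgeR, DESeq2 or limma-voom, with 3, 3 and 4 at an unadjusted p under 0.05. With no filter, edgeR called Mrpl24, which has a bacterial homologue, lower (adjusted p = 0.0355). The difference between the classes was not tested. The regions upstream of the 3 called genes are shown because some nuclear genes for mitochondrial proteins are known to be controlled through sites for ETS factors, NRF1 and YY1. Each run is the 250 bases before the RefSeq gene start (GRCm38.p6, the assembly of mm10), read 5′ to 3′ on the gene's strand, with any match to CCGGAAG (ETS), ATGGCGGC (YY1) or the core NRF1 palindrome on either strand in capitals.
Mrps30 upstream region, chr13:118387253-118387502, minus strand: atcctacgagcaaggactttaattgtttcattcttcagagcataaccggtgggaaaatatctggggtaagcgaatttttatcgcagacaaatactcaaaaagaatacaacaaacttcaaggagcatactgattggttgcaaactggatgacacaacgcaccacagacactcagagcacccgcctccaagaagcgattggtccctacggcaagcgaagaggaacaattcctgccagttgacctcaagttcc
Mrpl52 upstream region, chr14:54426659-54426908, plus strand: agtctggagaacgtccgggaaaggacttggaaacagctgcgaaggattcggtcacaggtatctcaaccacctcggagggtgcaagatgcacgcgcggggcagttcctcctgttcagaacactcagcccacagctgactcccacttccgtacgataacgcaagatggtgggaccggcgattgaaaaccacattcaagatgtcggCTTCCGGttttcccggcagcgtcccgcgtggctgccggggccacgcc
Mrps25 upstream region, chr6:92184024-92184273, minus strand: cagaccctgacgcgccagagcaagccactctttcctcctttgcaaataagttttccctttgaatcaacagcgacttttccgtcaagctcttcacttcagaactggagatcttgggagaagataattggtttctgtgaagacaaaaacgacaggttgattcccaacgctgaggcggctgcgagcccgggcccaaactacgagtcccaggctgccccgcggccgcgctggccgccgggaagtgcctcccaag
Mrpl52 held 1 match, to the ETS letters, and the other runs held 0. Of the 76 members, 67 had an entry in the promoter table. The ETS letters were found in 25.4% of these 67, in 15.7% of genes tested with an entry and in 7.83% of all genes with an entry. For the NRF1 letters the shares were 13.4%, 9.26% and 4.23%, and for the YY1 letters 1.49%, 2.19% and 1.19%. The motifs do not contain one another, and a match describes letters only.

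Among the members that were not called, Mrpl24, which lines the tunnel through which the new protein leaves the ribosome, had the smallest adjusted p. It stood at 23.8 and 27.2 CPM in BL/10 and 15.9 and 19.8 CPM in NOD.B10, a log2 fold change of −0.51 with an SE of 0.177 (adjusted p = 0.0721). Its adjusted p was 0.0495 without the first BL/10 library, 0.0334 without the second NOD.B10 library and 0.0355 with no filter. Its exons share 594 bases with Rrnad1 on the opposite strand. Mrps9, a protein of the small subunit's head, stood at 20.9 and 23.1 CPM in BL/10 and at 28.3 and 31.4 CPM in NOD.B10, a log2 fold change of 0.44 with an SE of 0.158 (adjusted p = 0.0825). Mrpl30 was at 43.8 and 43.3 CPM against 35.7 and 33.4 CPM, a log2 fold change of −0.33 with an SE of 0.133 (adjusted p = 0.119). The strains did not overlap for any of these 3 genes, which were chosen by their adjusted p. Over all genes tested the strains did not overlap for 55.6%.

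Within the large subunit the proteins were grouped by their place in the ribosome. Of the 31 genes so placed in either subunit 0 were called by edgeR, DESeq2 or limma-voom, while edgeR called 15.2% of all genes tested. Each tool gave 2 of them an unadjusted p under 0.05, against 26.8% of all genes by edgeR. With no filter, edgeR called Mrpl24 lower (adjusted p = 0.0355). The stalk, which recruits the factors that drive elongation, is built from Mrpl10, Mrpl11 and Mrpl12, with log2 fold changes from −0.28 for Mrpl11 to 0.14 for Mrpl10. Of 5 proteins around the catalytic centre, where peptide bonds form, 3 lay below 0 and 2 above, from −0.42 for Mrpl2 to 0.28 for Mrpl4. Of 7 proteins at the exit tunnel 6 lay below 0, from −0.51 for Mrpl24 to 0.19 for Mrpl17, with a median of −0.20. Of 5 proteins of the central protuberance, the contact to the small subunit, 2 lay below 0 and 3 above, from −0.38 for Mrpl48 to 0.24 for Mrpl38. The remaining 29 large subunit genes, which include Mrps30 and Mrpl52, ran from −0.70 to 0.33, with Mrpl20 highest. Over the 49 genes the median was −0.16, with 31 below 0.

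In the small subunit 14 of 26 genes lay below 0, and the median was −0.01. The 4 proteins of the head ranged from −0.45 for Mrps10 to 0.44 for Mrps9. Proteins of the decoding centre and of the entry of the messenger, Mrps5, Mrps12 and Mrps24, ranged from −0.17 to 0.29. The 4 platform proteins lay between −0.13 for Mrps11 and 0.06 for Mrps21. Variants of the human counterparts of Mrps16, Mrps22 and Mrps34 are known causes of mitochondrial disease, and these genes had log2 fold changes of −0.05, 0.07 and −0.28 (adjusted p = 0.922, 0.896 and 0.378). The 15 small subunit genes outside these groups ran from −0.51 for Mrps33 to 0.67 for Mrps25. Mrps36, outside both subunits, had 83 and 139 reads in BL/10 and 63 and 93 reads in NOD.B10, for a log2 fold change of −0.24 with an SE of 0.381 (adjusted p = 0.761).

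For most members the strain difference did not exceed the larger of the replicate differences, and the BL/10 libraries differed mostly in 1 direction. In BL/10, 69 of 76 members had a higher level in the second library than in the first, with a median log2 ratio of 0.29 (on CPM plus 0.5), while over all genes tested 49.3% were higher in the second library and the median was −0.0034. All 26 small subunit genes and 42 of 49 large subunit genes took that direction. In NOD.B10, 48 of 76 members were higher in the second library, with a median of 0.09, against 49.9% of all genes. The strain difference was larger than both replicate differences for 17 members (22.4%), against 43.5% of all genes tested. For 29 members the strains did not overlap, 19 lower and 10 higher in NOD.B10, a share of 38.2% against 55.6% of all genes. The family's median log2 fold change was −0.21 without the first BL/10 library and 0.10 without the second.

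**Figure D4:**
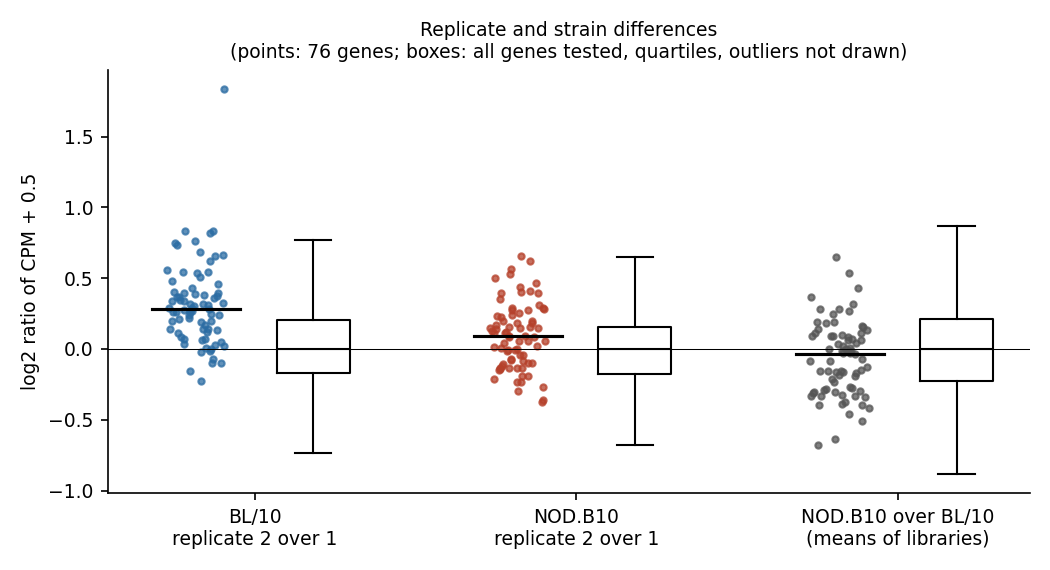
Points give the log2 ratio of CPM plus 0.5 for the 76 members between the libraries of BL/10 (blue), of NOD.B10 (red) and between the strains' library means (grey), with a line at the median. Boxes give the quartiles of all genes tested, and the blue points are centred on 0.29 while their box is centred near 0.

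The largest replicate difference was that of Mrps28, the small subunit's relative of bacterial protein S1. It had 48 and 182 reads in BL/10 and 98 and 141 reads in NOD.B10, or 1.62 and 7.05 CPM against 5.08 and 5.52 CPM. The second BL/10 library was 4.35-fold above the first (95% interval 3.15 to 6.11, exact binomial, counting error only), and the NOD.B10 libraries lay between them. Its strain difference had a log2 fold change of 0.30 with an SE of 0.654 (adjusted p = 0.844), which became 1.70 on leaving out the second library of BL/10 (adjusted p = 0.0233) and −0.41 on leaving out the first (adjusted p = 0.599). Mrps36 and Mrpl20 followed, 1.92-fold (1.45 to 2.55) and 1.84-fold (1.54 to 2.22) higher in the second BL/10 library. In NOD.B10 the largest differences were those of Mrps18b, Mrps7 and Mrps17, 1.6-fold, 1.55-fold and 1.49-fold higher in the second library, with 95% intervals of 1.37 to 1.88, 1.36 to 1.78 and 1.3 to 1.72. Mrps7 was called lower when that second library was left out (log2 fold change −0.71, adjusted p = 0.0207) and had an adjusted p of 0.365 otherwise.

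Of all 1196 tested genes under 1000 bases, members included, 69.6% were higher in the second BL/10 library. The 32 members under 1000 bases had a median log2 ratio of 0.33 between the BL/10 libraries and the 44 longer members 0.25, whereas all tested genes under 1000 bases had a median of 0.21 and longer ones −0.02. Across the 76 members the Pearson correlation of this ratio with log2 length was −0.29, and across all genes tested it was −0.18, as a description of genes that share the same libraries. Cytosolic ribosomal protein genes were also mostly higher in that library, and so were nuclear genes of the respiratory chain, counted here with those of the ATP synthase. Of 80 tested cytosolic ribosomal genes 77 were higher in the second BL/10 library (median 0.41), and of 80 respiratory chain genes 70 (median 0.30). Between strains, 21 of 80 cytosolic ribosomal genes were called lower in NOD.B10 (26.25%, median log2 fold change −0.28). Of 80 respiratory chain genes 2 were called lower (2.5%, median −0.06), and 0 of either family were called higher. Over all genes tested 8.63% were called lower and 6.55% higher. A difference between the families was not tested. With a length trend removed from each library, the same numbers of members were called, and the family's median was 0.0084.

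Levels per kilobase of transcript covered a 13.2-fold range, and on the log2 scale the strains' means correlated at 0.952 across members. Mrpl30 was highest, at 56.5 CPM per kilobase over all libraries, followed over all libraries by Mrpl52 with 50.4 in BL/10 and 31.0 in NOD.B10, Mrps21 with 35.2 and 36.5, Mrps16 with 35.2 and 34.0, and Mrpl43 with 36.0 and 29.8. Below Mrpl30 the order differed between the strains, and Mrpl52 was second in BL/10 but below Mrps21 and Mrps16 in NOD.B10. Over all libraries Mrps25 was lowest at 4.28, with 3.31 CPM per kilobase in BL/10 and 5.25 in NOD.B10, and Mrpl35, Mrps33, Mrps6 and Mrps36 had means between 4.63 and 5.27. In BL/10 alone Mrps25 was lowest too, but in NOD.B10 5 members were below it, Mrps33 (4.04), Mrpl35 (4.74), Mrps36 (4.82), Mrps6 (4.87) and Mrpl11 (5.17). The count table gives Mrps25 a length of 6065 bases, longer than that of the median member, 1053 bases. Since exons of Mrps25 share 4590 bases with Nr2c2 on the opposite strand, the level of Mrps25 per kilobase and its rank are uncertain. The median member stood at 14.6 CPM per kilobase and the median tested gene at 9.36. Across members, log2 CPM correlated at 0.941 between the BL/10 libraries, at 0.956 between the NOD.B10 libraries and at 0.909 to 0.936 between strains.

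**Figure D5:**
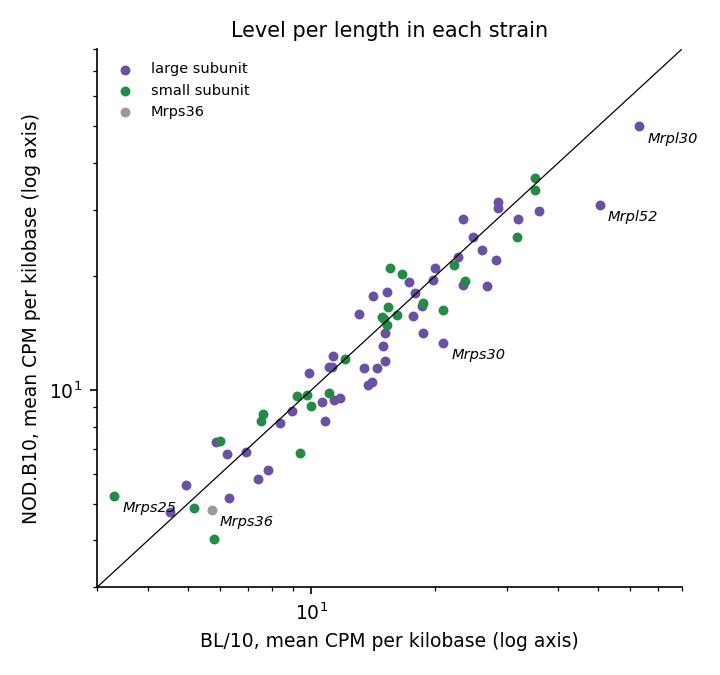
Mean CPM per kilobase of each member in BL/10 (horizontal) and NOD.B10 (vertical) on log axes, with a line of equality (large subunit purple, small subunit green, Mrps36 grey). Mrps25 lies above the line at 3.31 and 5.25, and Mrps30 and Mrpl52 lie below it.

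The other genes of mitochondrial translation were taken from lists by function. Over all genes tested edgeR called 15.2%, with 8.63% lower, and gave 26.8% an unadjusted p under 0.05. The 7 ribosomal proteins named otherwise, such as Dap3, Ptcd3 and Mrpl58 (counted as Ict1), gave 0 calls and 0 unadjusted p under 0.05 by edgeR, DESeq2 and limma-voom, with a median log2 fold change of 0.0034. Of 28 assembly genes, 2 were called lower (7.14%). Gtpbp10, a GTPase that matures the large subunit, stood at 10.7 and 9.61 CPM in BL/10 and 5.28 and 4.74 CPM in NOD.B10, a log2 fold change of −1.02 with an SE of 0.251 (adjusted p = 0.0140), and had an adjusted p of 0.0766 without the first BL/10 library. Rbfa, which binds the small subunit during assembly, had a log2 fold change of −0.56 (adjusted p = 0.0327), and leaving out the second library of BL/10 or the first of NOD.B10 gave adjusted p = 0.0843 and 0.18.

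Of 17 translation factors 1 was called (5.88%, against 15.2% of all genes tested), the release factor gene Mtrf1l. It went from 19.2 and 20.4 CPM in BL/10 to 11.1 and 12.9 CPM in NOD.B10 (log2 fold change −0.72, adjusted p = 0.0190). It lost its call when the second library of BL/10 (adjusted p = 0.0575) or the first of NOD.B10 (adjusted p = 0.0863) was left out. Of 20 genes that serve the loading of mitochondrial transfer RNAs, 2 were called lower and 2 higher. That is 20%, against 15.2% of all genes tested, and the difference was not tested. The list holds aminoacyl-tRNA synthetases and also Qrsl1, Gatb and Gatc, which are not synthetases and were not called. Mars2 fell from 50.7 ± 2.16 (SD, n = 2) to 26.1 ± 2.07 CPM (SD, n = 2), a log2 fold change of −0.96 (adjusted p = 0.00033). Wars2 rose with a log2 fold change of 0.63 (adjusted p = 0.0303), a call lost with limma-voom (adjusted p = 0.0529) and on leaving out the second library of BL/10 (adjusted p = 0.0612) or the first of NOD.B10 (adjusted p = 0.337). The others, picked after their values were seen, were Lars2, lower, and Fars2, higher at adjusted p = 0.0491. Lars2 had 13803 and 22083 reads in BL/10 against 1332 and 2073 in NOD.B10 (log2 fold change −3.14, adjusted p = 0.0348). That is 466 and 856 CPM in BL/10 against 69.0 and 81.2 CPM in NOD.B10. Iars2, the next highest of the list in BL/10, stood at 68.0 and 79.9 CPM there. The multimapping setting of the counting is not known here, and which reads make up the Lars2 count was not tested. Lars2 was not called with no filter (−3.14, adjusted p = 0.0638) or with the length trend removed (−3.17, adjusted p = 0.0512), at nearly the same log2 fold change. Fars2 was not called in 8 of its 15 alternatives, with an adjusted p of up to 0.445.

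Of 24 genes for mitochondrial DNA and RNA maintenance 0 were called by edgeR, DESeq2 or limma-voom. Each tool gave 1 of them an unadjusted p under 0.05. Over all genes tested edgeR called 15.2% and gave 26.8% an unadjusted p under 0.05. The nearest to a call was Mterf, at an adjusted p of 0.0577. Mterf was called lower with no filter (adjusted p = 0.0211) and on leaving out the first library of BL/10 (adjusted p = 0.037) or the second of NOD.B10 (adjusted p = 0.0282). Of 10 regulators of mitochondrial biogenesis, 7 had a log2 fold change above 0 and 3 below, with a median of 0.05. Only the coactivator gene Ppargc1a was called, or 10% of the list against 15.2% of all genes tested. It was lower, with 146 and 109 reads in BL/10 and 19 and 27 in NOD.B10. Ppargc1a had a log2 fold change of −2.16 with an SE of 0.406 (adjusted p = 0.00264). Its level did not exceed 5 CPM in any library.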

How the data were processed

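RNA from sorted cervical lymph node B cells was sequenced, with 2 libraries a strain. The deposited values are whole-number read counts per gene symbol, with a length per gene. The authors used HISAT2 2.1.0, SAMtools 1.3 and featureCounts of Subread 1.6.5 on mm10, per the submitters' processing notes. The annotation, strand and multimapping settings used are not given in the sources used here. The genes under a count of 10 (edgeR's filterByExpr, minimum total 15) were left out. Strains were compared with edgeR 4.0.16 (R 4.3.3) by its robust quasi-likelihood test with TMM factors, checked on simulated data, and p-values were adjusted by Benjamini-Hochberg over all genes tested. DESeq2 1.42.0 and limma 3.58.1 (voom), other scalings and filters, a length trend, a replicate block and leaving out each library were alternatives. The SE is the log2 fold change divided by the square root of F. Gene positions and promoters come from RefSeq (GRCm38.p6), and strands and exon overlaps from GENCODE M21. Members and gene lists were chosen with earlier results of these data known. Named are the called members, the 5 highest and lowest per kilobase, the 3 with the largest replicate ratio in each strain, the 3 uncalled with the smallest adjusted p, up to 2 called genes of each list (or the 1 with the smallest p), and members whose role is given.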

Additional observations from a re-analysis of the deposited data

How the results depend on the processing

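Under the alternatives that kept all libraries, 1 member was called higher and 2 lower, except that 3 were lower with no filter. Leaving out 1 library at a time, the members called higher numbered 0 to 2 and those called lower 1 to 3. The family's median log2 fold change then ran from −0.21 without the first BL/10 library to 0.10 without the second, and no call of Mrps30, Mrpl52 or Mrps25 was kept in all 4 of these fits. With 1 library left in a strain, that library is assumed to vary like the other strain's. The labels number the replicates, but the deviations of same-numbered libraries correlated at −0.0165 over all genes tested, so the numbers were not taken to pair the libraries. With the replicate block, 1 member was called higher and 2 lower, with a median of −0.04. The summed level with 1 library a strain was 1306 to 1557 CPM in BL/10 and 1321 to 1402 CPM in NOD.B10. With 2 libraries a strain and a median SE of 0.20, small changes of single members could not be told from replicate spread.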
